A study of Mus musculus with 16 samples.

Results

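The genes described here are 37 that serve fatty acid oxidation, ketone body metabolism and the peroxisome proliferator-activated receptors (PPARs) in colonocytes, picked by name from 56268 genes measured by RNA sequencing of mouse colonic epithelial cells. They comprise 5 nuclear receptors and coactivators, 7 transporters and fatty acid binding proteins, 2 acyl-CoA synthetases, 3 parts of the carnitine shuttle, 12 mitochondrial and 4 peroxisomal enzymes of beta-oxidation, and 4 ketone body, lipid droplet or secreted proteins. All 37 were in the table, and 34 reached the level required for testing, which was 1 FPKM (fragments per kilobase of gene length, scaled to library size) in at least 4 libraries.

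The 16 libraries fell into 4 groups of 4. Control mice, labelled WT, carried the Villin-Cre transgene alone. Conditional knockout (cKO) mice carried Rictor Flox together with Villin-Cre, so all 16 libraries share the transgene. The villin promoter acts in the epithelium of the intestine, which limits the intended deletion to those cells. Rictor encodes the defining subunit of mTOR complex 2, and the study asked how this complex bears on colitis. Each genotype was sampled on normal water and after 3% dextran sulfate sodium (DSS) in the drinking water, a polysaccharide that damages the colonic lining. The labels give neither the duration of DSS nor the age of the mice. They do not say that each library came from its own animal, so the p-values reflect the spread among these libraries alone, which may be technical.

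Colonocytes draw much of their energy from butyrate, a short-chain fatty acid made by gut bacteria, which they import and oxidise in mitochondria. Long-chain fatty acids are bound, activated to acyl-CoA, carried into mitochondria by the carnitine shuttle and shortened by beta-oxidation, while peroxisomes take very long and branched chains. PPARs are nuclear receptors that bind fatty acids, pair with the retinoid X receptor and raise the transcription of many of these genes from paired copies of a hexamer, the DR1 element.

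Promoter sequences from RefSeq (GRCm38.p6, 250 bases before to 50 after a start site) were available for 32 of the 37 genes and covered 36 start sites. The DR1 consensus AGGTCANAGGTCA was sought on both strands, and no other motif was sought. None of these 36 promoters held it without a mismatch, as against 0.0396% of all 32851 promoters, a share too small for this count to tell anything. With at most 2 mismatches it stood in 5 of the 36 promoters (13.9%) and in 3.86% of all promoters. A match describes the letters only and is not evidence of binding. Of the 5 windows, the 4 whose match began before the start site are shown. They read 5′ to 3′ on the gene's strand with the 13 matched bases in capitals. The remaining match, in Slc25a20, began 7 bases after the start site, and Slc25a20 passed no test.
Plin2: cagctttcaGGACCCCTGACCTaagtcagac
Cd36: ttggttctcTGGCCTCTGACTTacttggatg
Fabp1: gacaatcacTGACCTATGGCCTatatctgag
Echs1: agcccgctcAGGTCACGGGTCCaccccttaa
The Fabp1 match had 1 mismatch and the others 2. The Plin2 window is chr4:86670263-86670293 on the minus strand, with its match starting 225 bases before the start site. The Cd36 window is chr5:17835938-17835968 on the minus strand, 63 bases before a RefSeq start site inside the deposited span of the gene. The Fabp1 window is chr6:71199803-71199833 on the plus strand, 67 bases before the start. The Echs1 window is chr7:140116483-140116513 on the minus strand, 83 bases before the start. Of these 4 genes, Plin2 rose after DSS in both genotypes, Echs1 passed no test, and Cd36 and Fabp1 were close to the limit of detection, as described below.

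Library depth ran from 13911823 to 16414914 reads, recovered from the FPKM values, with 19969 to 22738 genes above 0. Rictor itself stood at 2.17 to 3.14 FPKM in control and 2.22 to 2.75 in cKO on water, ranges that overlap. After DSS it stood at 2.82 to 4.16 in control and 1.92 to 2.96 in cKO, with an adjusted p of 0.0761. An FPKM value over the whole gene cannot show the loss of a floxed part, so this check of the labels is incomplete. Libraries also differed in ways the groups do not name. All DSS libraries held 2681 to 4533 reads of 4 Y-linked genes, and the water libraries 0 (control 3, cKO 3 and cKO 4) to 1856, whereas Xist had 10022 to 25600 reads in every water library and 0 to 7 after DSS, apart from 5275 in control DSS 2. The labels do not give the sex of the mice or say whether animals were pooled, so sex and DSS cannot be told apart. The clock gene Dbp stood at 0.135 to 2.26 FPKM in all 8 DSS libraries and at 7.02 to 28.4 in the water libraries, apart from 1.52 in control 4. Of 10 clock genes, 8 passed between DSS and water in control and 9 in cKO. Hoxd13, a marker of the distal colon, stood at 24.3 to 30.6 FPKM in control DSS and 5.01 to 11.8 in cKO DSS, against 16.8 to 27.1 on water. Libraries further differed in GC skew, taken as the rank correlation across genes of the deviation from the mean of all libraries with transcript GC content. It was 0.19 to 0.498 in control, -0.226 to 0.0052 in cKO and -0.483 to 0.0178 in control DSS. In cKO DSS it was -0.255 and -0.375 in libraries 1 and 2 and 0.399 and 0.388 in libraries 3 and 4. The 9 epithelial markers of the labelled cell type were all above 1 FPKM in every library and summed to 6920 to 10100 FPKM. The markers of fibroblasts summed to 2.97 to 5.67 FPKM on water and 7.48 to 13.6 after DSS, and those of macrophages to 3.9 to 6.77 and 6.64 to 11.2. In bulk samples, fewer cells of a type and less RNA per cell cannot be told apart.

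Levels of the tested genes spanned from butyrate transport down to scarce lipid enzymes. The highest median over the 16 libraries belonged to Fabp2, an intracellular fatty acid binding protein, at 182 FPKM. Next came Acads, the short-chain acyl-CoA dehydrogenase that takes butyryl-CoA, at 139.8 FPKM, and the butyrate importers Slc5a8 and Slc16a1 at 125.3 and 115.8 FPKM. Acadl followed at 95.2 and Acaa2 at 82.5 FPKM. Among the receptors, Ppard and Pparg were close to each other at 37.4 and 34.8 FPKM, and their ranges over libraries overlapped, whereas the highest Ppara value, 8.58 FPKM, was below the lowest of either. The lowest tested medians were those of Slc27a2 at 1.63, Acaa1b at 2.59, Acsl1 at 2.85 and Hsd17b13 at 2.89 FPKM.

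**Figure D1:**
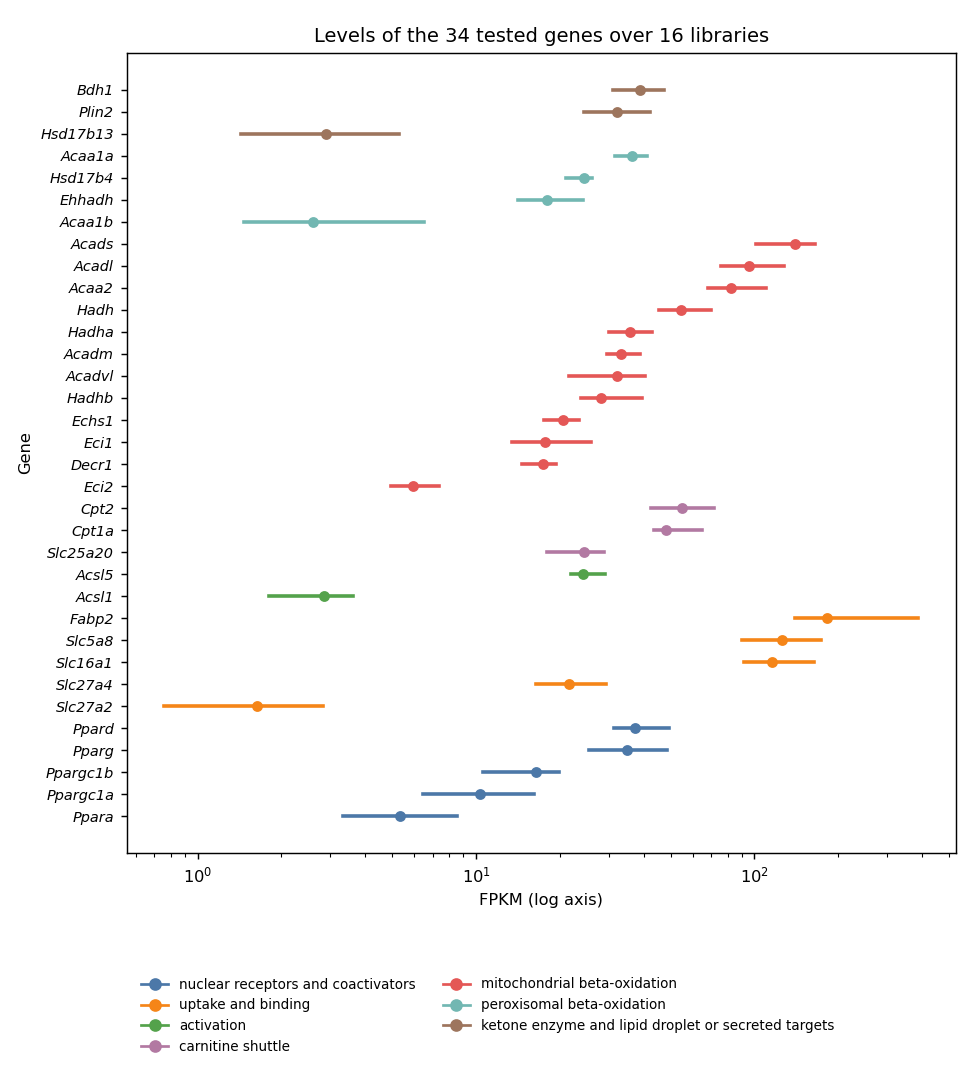
Median (point) and range (bar) of FPKM over the 16 libraries for the 34 tested genes on a log axis, coloured by role. Fabp2, Acads, Slc5a8 and Slc16a1 have medians above 100 FPKM, and Slc27a2 has the lowest median, 1.63 FPKM.

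The 3 untested genes were close to absent. Cd36, a long-chain fatty acid transporter, had 24 reads over all 16 libraries, between 0 and 5 in each. Fabp1, the liver-type fatty acid binding protein, had 6 reads in all and none in the 8 cKO libraries. Angptl4, a secreted lipase inhibitor and PPAR target, had 440 reads and ran from 0.148 to 1.62 FPKM. Its highest value was in cKO DSS 1 and its lowest in cKO 2.

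**Figure D2:**
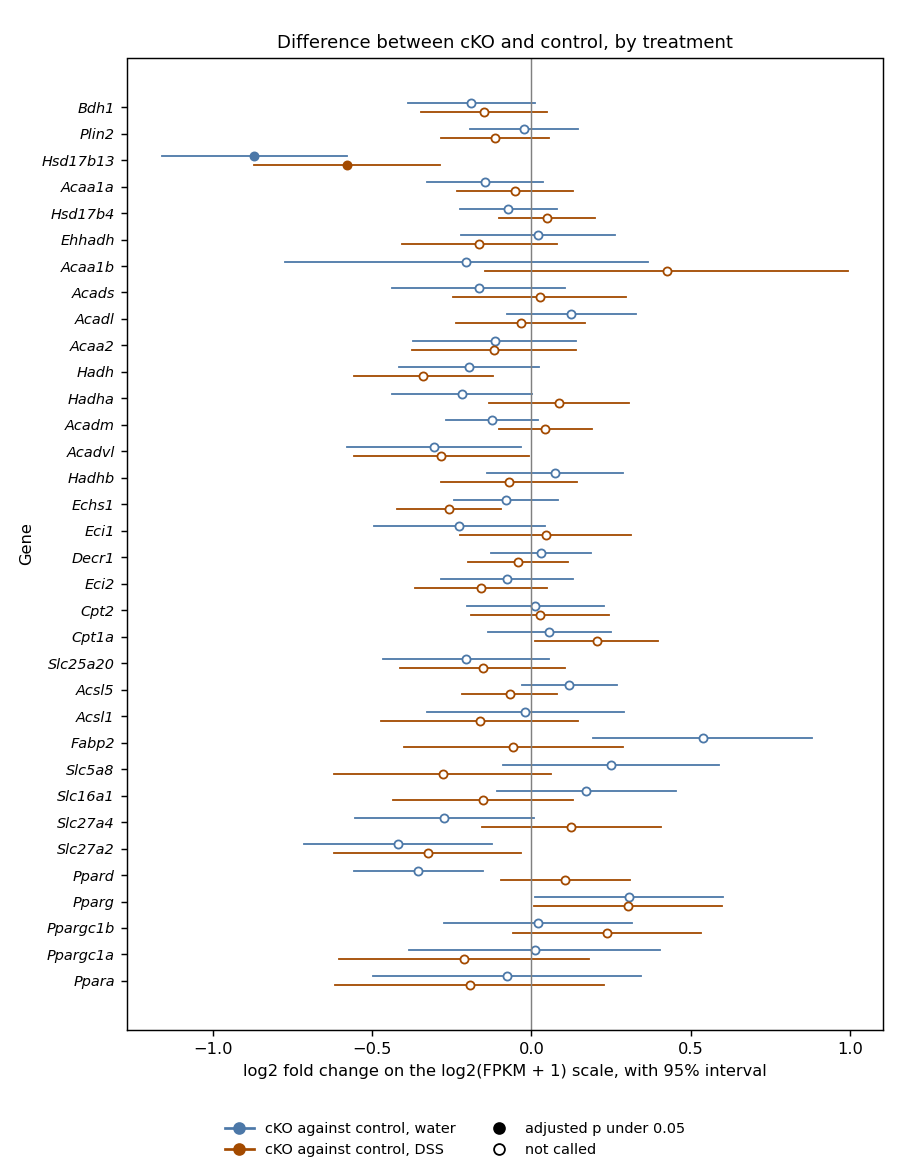
Difference between cKO and control for the 34 tested genes as log2 fold change on the log2(FPKM + 1) scale, with 95% intervals, on water (blue) and after DSS (brown). Filled points have an adjusted p under 0.05, and Hsd17b13 is the only gene with filled points, at -0.87 on water and -0.58 after DSS.

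The genotype comparison asked what the loss of Rictor does to these genes. On water, 1 of the 34 tested genes passed, where 0.0905% of all 13255 tested genes did and 0.0377% were lower (limma on log2(FPKM + 1), Benjamini-Hochberg adjusted p under 0.05). That gene was Hsd17b13 (ENSMUSG00000034528, mm10 chr5:103955440-103977410, minus strand), an enzyme of the lipid droplet surface. It measured 5.09, 3.75, 5.30 and 4.35 FPKM in control 1 to 4, and 2.61, 2.01, 2.32 and 1.43 in cKO 1 to 4. Every cKO value was lower than every control value. The means were 4.62 ± 0.712 and 2.09 ± 0.503 FPKM (SD, n = 4), a log2 fold change of -0.87 ± 0.14 (SE) and an adjusted p of 0.0287. Fold changes here refer to log2(FPKM + 1) throughout, a scale that understates differences in low genes.

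After DSS, Hsd17b13 was again the 1 tested gene of the 34 that passed, where 3.70% of all genes did and 1.67% were lower. Values were 4.08, 4.49, 3.14 and 3.73 FPKM in control DSS, and 1.91, 1.90, 2.59 and 2.63 in cKO DSS, and the groups did not overlap. The log2 fold change was -0.58 ± 0.14 with an adjusted p of 0.0325. Averaged over water and DSS it was -0.72 ± 0.10 with an adjusted p of 0.00154, again the 1 gene of the 34 called, where 0.951% of all genes were called lower. The difference between the 2 genotype effects was 0.29 ± 0.19, with an adjusted p of 0.363.

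Hsd17b13 rested on 43 to 171 reads per library. The averaged difference passed in all 16 fits that left out 1 library, with adjusted p of at most 0.00499. The difference on water did not pass without control 1, 3 or 4, cKO 2, 3 or 4, control DSS 1 or cKO DSS 4, where its adjusted p lay between 0.0515 and 0.0957. After DSS it did not pass without control DSS 1, 2 or 4 or cKO DSS 2, 3 or 4, where its adjusted p lay between 0.0532 and 0.11. With each library corrected for GC content the adjusted p after DSS was 0.0527. Restricted to libraries with Y-linked reads, the log2 fold change on water was -0.70 with an adjusted p of 0.357.

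**Figure D3:**
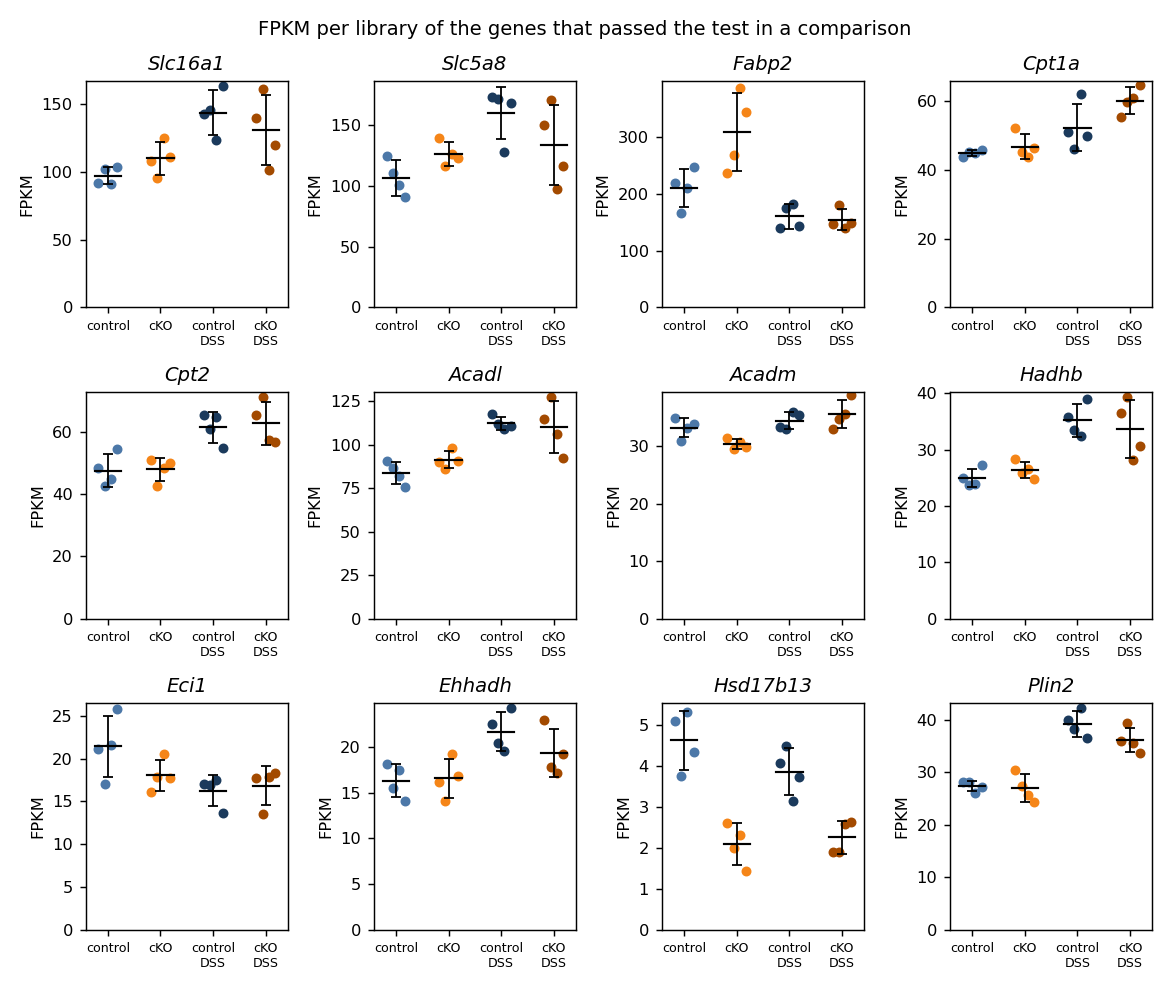
FPKM of each library (points), with group mean (line) and SD (bars, n = 4), for the 12 genes that passed the test in at least 1 comparison. Hsd17b13 separates by genotype, Plin2 and Cpt2 sit higher after DSS in both genotypes, and Fabp2 reaches 386 FPKM in cKO on water against 139.8 to 181.1 in cKO after DSS.

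The other genes showed differences by genotype that did not pass. On water, 6 of the 34 genes (Hsd17b13 among them) lay wholly lower in cKO and 1 wholly higher, 17.6% and 2.94% of them, where 7.65% and 7.85% of all genes did. Ppard, a receptor for fatty acids that is abundant in the gut, measured 41.8, 37.4, 40.5 and 49.4 FPKM in control and 31.3, 32.2, 33.95 and 33.4 in cKO. This was a log2 fold change of -0.36 ± 0.10 with an adjusted p of 0.124. After DSS the Ppard groups overlapped, at 32.6 to 40.9 FPKM in control and 34.7 to 42.8 in cKO.

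Acadvl, which opens the oxidation of very long acyl chains, measured 32.0, 31.8, 34.1 and 32.1 FPKM in control and 27.3, 25.2, 26.1 and 25.7 in cKO on water. Its log2 fold change was -0.31 ± 0.13, with an adjusted p of 0.237. Hadha, the subunit of the trifunctional protein that hydrates and oxidises long chains, measured 36.8, 36.0, 37.2 and 42.7 FPKM in control and 34.3, 32.4, 29.99 and 33.97 in cKO. Its adjusted p was 0.28.

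Slc27a2, an acyl-CoA synthetase that also promotes uptake, measured 2.74, 1.83, 2.82 and 2.21 FPKM in control and 1.78, 1.52, 1.61 and 1.23 in cKO on water. After DSS it measured 1.65, 1.78, 1.66 and 1.52 in control and 1.44, 0.818, 0.760 and 1.58 in cKO. The averaged genotype difference was -0.37 ± 0.10 with an adjusted p of 0.0641, which narrowly missed the threshold. Slc27a4, its relative, measured 21.8, 21.6, 24.2 and 29.4 FPKM in control and 19.8, 17.4, 21.4 and 20.7 in cKO on water, with an adjusted p of 0.286. Acsl5, the main long-chain acyl-CoA synthetase of the intestine, was the 1 gene wholly higher in cKO. It measured 23.1, 23.9, 22.9 and 21.9 FPKM in control and 24.7, 25.5, 24.7 and 25.1 in cKO, a narrow gap with an adjusted p of 0.365.

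After DSS, 3 tested genes lay wholly lower in cKO and 1 wholly higher, 8.82% and 2.94% of them, where 4.88% and 5.12% of all genes did. Hsd17b13 was 1 of the 3. Hadh, the short-chain hydroxyacyl-CoA dehydrogenase, measured 60.1, 61.9, 61.4 and 66.5 FPKM in control DSS and 55.1, 49.9, 45.9 and 46.3 in cKO DSS, with a log2 fold change of -0.34 ± 0.10 and an adjusted p of 0.0791. Echs1, the short-chain enoyl-CoA hydratase, measured 22.1, 22.5, 20.7 and 23.2 FPKM in control DSS and 18.4, 18.5, 18.4 and 18.1 in cKO DSS, with an adjusted p of 0.0755. Hadh and Echs1 act in sequence on short acyl chains. Hoxd13 moved with this comparison, with a log2 fold change of -1.58 (adjusted p of 0.000953), and its part in these values was not tested.

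Pparg, the receptor known for driving fat cell genes and also expressed in colonocytes, was the gene wholly higher in cKO after DSS. It measured 34.1, 34.8, 30.5 and 28.7 FPKM in control DSS and 38.7, 48.6, 36.8 and 35.7 in cKO DSS. The log2 fold change was 0.30 ± 0.14 after DSS and 0.31 ± 0.14 on water, with adjusted p of 0.233 and 0.264, and -0.001 ± 0.196 for the difference between them. Adipocyte markers were near 0 in every library: Adipoq, Lep and Retn had no reads, and the 6 markers summed to 0.825 to 3.39 FPKM.

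Over the 34 tested genes the median log2 fold change between genotypes was -0.08 on water and -0.07 after DSS, beside 0.01 and -0.01 over all genes. With each library corrected for GC content these medians were -0.08 and -0.08. For 12 mitochondrial beta-oxidation genes the averaged difference was negative in 10, where it was negative in 6442 of all 13255 genes. None of the 12 passed in limma. An unadjusted p under 0.05 was reached by 3 of them, and by 2082 of all genes. The nuclear-encoded respiratory chain takes up the electrons that beta-oxidation releases. None of its 30 tested genes passed on water, with 12 at an unadjusted p under 0.05, where 18.1% of all genes were. After DSS 7 of the 30 were lower in cKO, where 1.67% of all genes were, and on average 5 were, where 0.951% of all genes were. Its median was -0.24 on water and -0.27 after DSS. Fold changes by genotype had a rank correlation with transcript GC content of -0.523 on water and 0.375 after DSS over 12867 genes, which are not independent of each other.

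The DSS comparison in control mice asked how injury changes these genes in epithelium with Rictor. Of the 34 tested genes 8 passed, 23.5%, where 28.5% of all genes did. Of these, 7 were higher after DSS, 20.6% against 15.0% of all genes, and 1 was lower, 2.94% against 13.5%. The share called was therefore near that of all genes, with more of the calls upward. The median log2 fold change was 0.09, beside -0.005 over all genes. With each library corrected for GC content it was 0.04, beside 0.002, and 19 of the 34 genes were above 0. Over all genes, fold changes had a rank correlation of -0.53 with transcript GC content in control and 0.0546 in cKO. Those that rose were the butyrate importers Slc16a1 and Slc5a8, the shuttle enzyme Cpt2, the mitochondrial enzymes Acadl and Hadhb, the peroxisomal enzyme Ehhadh and the lipid droplet coat Plin2.

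Plin2 (ENSMUSG00000028494, mm10 chr4:86648386-86670060, minus strand) had the smallest adjusted p. It measured 28.2, 28.2, 26.0 and 27.2 FPKM in control and 39.9, 38.2, 42.2 and 36.5 in control DSS. All 4 DSS values were above all 4 water values, with a log2 fold change of 0.50 ± 0.08 and an adjusted p of 0.00104.

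Slc16a1, the proton-coupled monocarboxylate transporter MCT1 (mm10 chr3:104638668-104658462), measured 92.1, 102.5, 91.4 and 103.5 FPKM in control and 142.8, 146.2, 123.5 and 163.7 in control DSS, without overlap. The rise was a log2 fold change of 0.56 ± 0.13 with an adjusted p of 0.00855. Slc5a8, the sodium-coupled transporter SMCT1 of the apical membrane (mm10 chr10:88885992-88929515), measured 124.3, 110.5, 100.2 and 90.4 FPKM in control and 172.9, 171.1, 127.3 and 167.6 in control DSS. Control DSS 3 was the lowest of its group, yet still above every control value. Its log2 fold change was 0.58 ± 0.16 with an adjusted p of 0.0162, which rose to 0.0502 to 0.0513 when control 4 or control DSS 1 was left out.

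Cpt2, which frees acyl-CoA from carnitine inside mitochondria, measured 48.5, 42.5, 44.9 and 54.6 FPKM in control and 65.7, 61.1, 64.7 and 54.8 in control DSS. The highest control value and the lowest DSS value lay close together. The rise was 0.37 ± 0.10 with an adjusted p of 0.0168, and 0.054 without control DSS 1.

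Acadl, the long-chain acyl-CoA dehydrogenase, measured 90.6, 87.0, 81.8 and 75.6 FPKM in control and 117.7, 111.8, 109.1 and 110.7 in control DSS, with a log2 fold change of 0.42 ± 0.10 and an adjusted p of 0.00649. Ehhadh, the bifunctional enzyme of peroxisomes, measured 18.1, 15.5, 17.5 and 14.1 FPKM in control and 22.5, 20.4, 19.5 and 24.3 in control DSS. Its log2 fold change was 0.39 ± 0.11 with an adjusted p of 0.0208, and up to 0.0653 without control 4, control DSS 1 or control DSS 4. Neither gene's groups overlapped.

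Eci1, an enoyl-CoA isomerase for unsaturated chains, was the 1 gene that fell. It measured 21.2, 17.1, 21.6 and 25.9 FPKM in control and 17.04, 16.9, 17.5 and 13.6 in control DSS, and the groups overlapped. The fitted difference was -0.37 ± 0.13 with an adjusted p of 0.0411. It no longer passed in 8 of the 16 fits that left out 1 library (control 1, 3 or 4, cKO 2 or 4, control DSS 1, 2 or 4), with adjusted p of 0.0519 to 0.128.

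In 10 of the tested genes (29.4%) all control DSS values lay above all control values, and in 1 all lay below, where 15.5% and 12.8% of all genes did. The 10 included the 7 that rose and 3 that did not pass. Of these, Ppargc1a, the coactivator PGC-1alpha that drives mitochondrial gene expression, measured 11.3, 10.2, 9.06 and 6.45 FPKM in control and 14.6, 12.98, 11.6 and 11.7 in control DSS, with an adjusted p of 0.0835. Decr1, a reductase for polyunsaturated chains, measured 16.1, 15.5, 16.7 and 17.1 FPKM in control and 18.3, 19.4, 17.1 and 18.4 in control DSS, with an adjusted p of 0.128. Cpt1a, the rate-limiting enzyme of mitochondrial fatty acid import, is given with the cKO comparison below. The gene wholly lower was Slc27a2, whose values are given above, with an adjusted p of 0.0697.

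**Figure D4:**
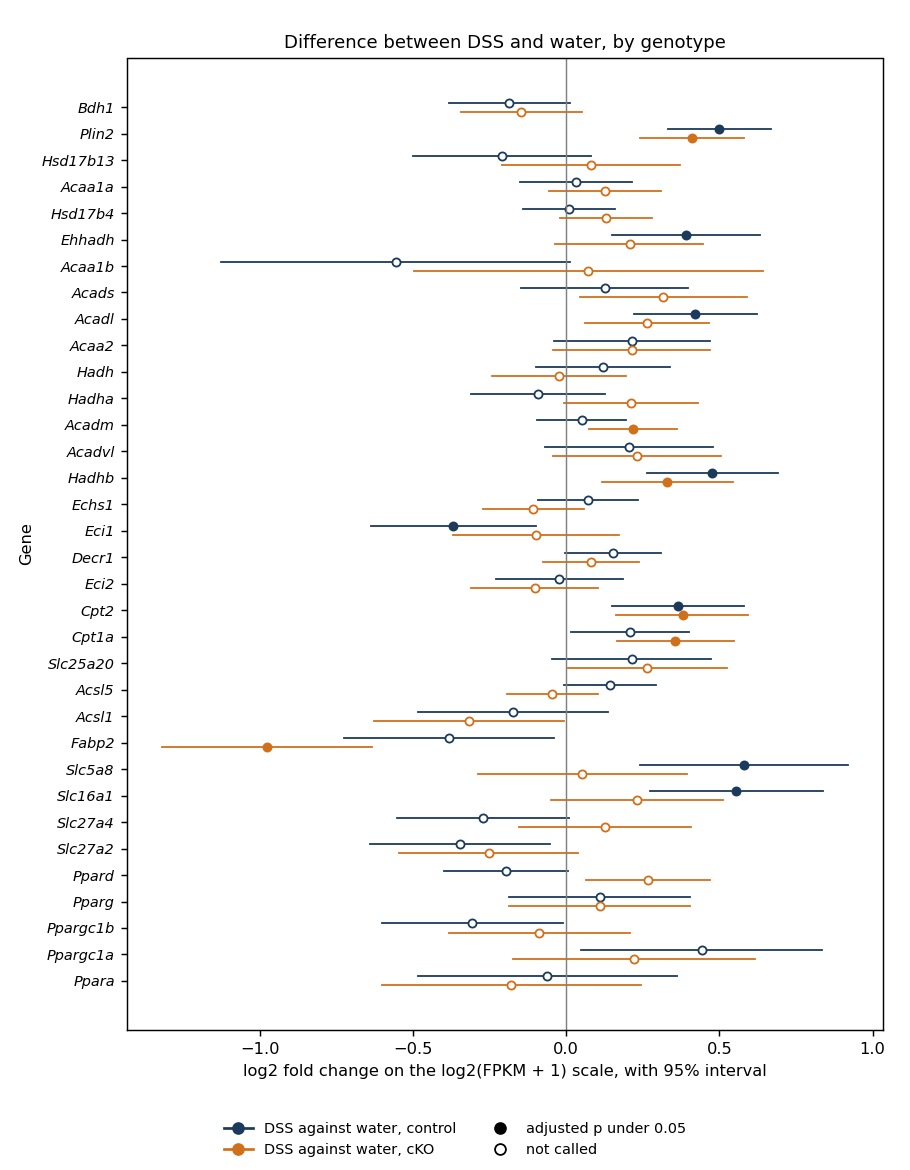
Difference between DSS and water for the 34 tested genes as log2 fold change on the log2(FPKM + 1) scale with 95% intervals, in control (dark blue) and cKO (orange). Filled points have an adjusted p under 0.05, and Cpt2, Hadhb and Plin2 are filled and above 0 in both genotypes.

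In cKO mice, 6 of the 34 tested genes passed after DSS (17.6%), where 14.7% of all genes did. Of these, 5 were higher (14.7% against 8.07% of all genes) and 1 was lower (2.94% against 6.64%). Those higher were Cpt1a, Cpt2, Acadm, Hadhb and Plin2. The median log2 fold change was 0.13, beside -0.006 over all genes, and 0.11 beside -0.009 with the GC correction. In 5 of the tested genes all DSS values lay above all water values, and in 1 all lay below, where 10.1% and 8.97% of all genes did.

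Fabp2 (ENSMUSG00000023057, mm10 chr3:122895072-122899506) had the fold change farthest from 0 of the 34 genes on the log2(FPKM + 1) scale. It measured 237.2, 267.6, 386 and 343.3 FPKM in cKO and 146.2, 181.1, 139.8 and 149.3 in cKO DSS. Its mean fell from 308.5 ± 68.2 to 154.1 ± 18.4 FPKM (SD, n = 4), a log2 fold change of -0.98 ± 0.16 with an adjusted p of 0.00125. In control it measured 218.2, 165.8, 209.9 and 247.6 FPKM on water and 140.3, 175.5, 182.9 and 143.6 after DSS, where the groups overlapped and the adjusted p was 0.0858. The cKO libraries on water were the high ones, 1.45 times the control level on the fitted scale, with an adjusted p of 0.147. The difference between the 2 DSS effects was -0.59 ± 0.23, with an adjusted p of 0.153. Fabp2 is best known from the small intestine. The 7 small intestinal markers summed to 76.2 to 1110 FPKM in cKO and 99.7 to 441 in cKO DSS, nearly all of it Reg3b, with Apoa4 at 0 in every library, and their part in the Fabp2 result was not tested.

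Cpt1a measured 52.1, 45.1, 43.6 and 46.2 FPKM in cKO and 55.3, 59.7, 60.8 and 64.7 in cKO DSS, with no overlap. Its log2 fold change was 0.36 ± 0.09 with an adjusted p of 0.0163, and 0.0503 without cKO 3. In control it measured 43.7, 45.1, 44.8 and 45.8 FPKM on water and 51.1, 46.1, 62.0 and 49.8 after DSS, also without overlap, with a log2 fold change of 0.21 ± 0.09 and an adjusted p of 0.0937.

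Cpt2 measured 51.1, 42.6, 48.3 and 49.9 FPKM in cKO and 65.6, 71.4, 57.5 and 56.95 in cKO DSS. Its log2 fold change of 0.38 ± 0.10 (adjusted p of 0.0212, and up to 0.0671 without cKO 2 or cKO DSS 2) was near the 0.37 seen in control. Plin2 measured 30.5, 27.4, 25.8 and 24.3 FPKM in cKO and 36.0, 39.3, 35.7 and 33.6 in cKO DSS, with a log2 fold change of 0.41 ± 0.08 and an adjusted p of 0.00378. In both genes the groups did not overlap. The difference between the DSS effects of the genotypes was 0.01, with a 95% interval of -0.29 to 0.32, for Cpt2 and -0.09, from -0.33 to 0.15, for Plin2.

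Acadm, the medium-chain acyl-CoA dehydrogenase, measured 31.4, 29.5, 30.7 and 29.9 FPKM in cKO and 33.0, 34.7, 35.6 and 38.9 in cKO DSS. The change was small, 0.22 ± 0.07 on the log2 scale, with an adjusted p of 0.0433. It passed in 7 of the 16 fits that left out 1 library, and in the other 9 (control 3, any cKO library, control DSS 1 or 2, cKO DSS 3 or 4) the adjusted p was 0.0562 to 0.122. Ppard was the remaining gene without overlap, at 31.3, 32.2, 33.95 and 33.4 FPKM in cKO and 34.7, 40.1, 40.8 and 42.8 in cKO DSS, with an adjusted p of 0.0734.

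Slc16a1 and Slc5a8 did not pass in cKO, where their DSS values spread widely. Slc16a1 measured 140, 161.7, 101.6 and 120.1 FPKM in cKO DSS 1 to 4, beside 108.2, 95.9, 125.2 and 111.4 in cKO. Slc5a8 measured 149.8, 170.7, 97.4 and 116.5 in cKO DSS, beside 139.4, 116.1, 126.4 and 122.4 in cKO. The low values were those of cKO DSS 3 and 4, whose GC skew is given above. With the GC correction neither gene passed, at 0.24 for Slc16a1 (adjusted p of 0.111) and 0.06 for Slc5a8 (adjusted p of 0.72). Without those 2 libraries the Slc16a1 difference was 0.45 on the log2 scale with an adjusted p of 0.0361, Slc5a8 did not pass at 0.34 with an adjusted p of 0.142, Acadl passed with 0.41 and an adjusted p of 0.0149, and Cpt1a and Acadm no longer passed.

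The interaction asked whether the DSS response differed between genotypes. None of the 34 tested genes passed in limma, where 0.151% of all genes did, and limma voom on the recovered reads called none either. An unadjusted p under 0.05 was reached by 4, 11.8% of those tested against 23.2% of all genes. Ppard had the smallest p, with a difference of 0.46 ± 0.13 and an adjusted p of 0.0969, followed by Fabp2 at -0.59, Slc5a8 at -0.53 ± 0.23 (adjusted p of 0.185) and Slc27a4 at 0.40 ± 0.19 (adjusted p of 0.214). Without cKO DSS 1 Ppard passed, at 0.52 with an adjusted p of 0.049. In the fits that left out 1 library, 0 to 1240 of all genes passed for the interaction, beside 20 as reported. The values of the 34 genes do not show that the genotypes respond alike. Over all genes the interaction had a rank correlation of 0.586 with transcript GC content, and Hoxd13 passed in it (adjusted p of 0.0251).

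With the Y-linked level as a covariate none of the 34 genes passed for DSS in either genotype, while the called differences kept their direction, with wider errors. In control they were 0.58 ± 0.20 for Slc16a1, 0.41 ± 0.15 for Cpt2 and 0.42 ± 0.14 for Acadl. Smaller than reported in control were Plin2 (0.36 ± 0.11 against 0.50) and Eci1 (-0.19 ± 0.18 against -0.37). Over all 29 alternative fits, the control differences ran from 0.335 to 0.626 for Slc16a1 and from 0.308 to 0.686 for Slc5a8. Those of Hadhb ran from 0.174 to 0.539 and those of Ehhadh from 0.298 to 0.58. In cKO they were 0.43 ± 0.17 for Cpt2 and 0.33 ± 0.15 for Cpt1a, and smaller than reported for Fabp2 (-0.61 ± 0.23), Plin2 (0.25 ± 0.12) and Hadhb (0.22 ± 0.16). In the libraries that held Y-linked reads, which leaves out control 3, cKO 3 and cKO 4, 5 passed in control (Slc16a1, Acadl, Hadhb, Ehhadh and Plin2) and 1 in cKO (Fabp2, at -0.71 with an adjusted p of 0.0413). After each library was corrected for GC content, Hadhb, Ehhadh and Eci1 no longer passed in control, and Fabp2 (-0.62), Cpt1a (0.27), Acads (0.49) and Acaa1a (0.24) did. In cKO every called gene still passed with this correction. Acadl (0.27, adjusted p of 0.0115) and Ppard (0.27, adjusted p of 0.0299) passed there as well. As reported, Acadl in cKO had a log2 fold change of 0.26 with an adjusted p of 0.0758. The 6 marker genes of crypt stem cells summed to 31.4 to 55.7 FPKM on water and 17.7 to 28.4 after DSS, and those of fibroblasts were higher after DSS as given above. Hoxd13 fell after DSS in cKO (-1.40, adjusted p of 0.000457). The part of these markers, the clock genes and Hoxd13 in the DSS differences was not tested.

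Hadha and Hadhb encode the alpha and beta subunits of the mitochondrial trifunctional protein, which assemble in a complex. The genes lie head to head on chromosome 5, with RefSeq start sites 273 bases apart. The 68 bases that lie between the genes and within both promoter windows, chr5:30155163-30155230 (GRCm38.p6, plus strand), are shown because the pair could share them; they are 66.2% G or C and hold no DR1 match.
Hadha-Hadhb: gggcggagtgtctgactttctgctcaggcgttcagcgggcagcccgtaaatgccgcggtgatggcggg
Hadhb measured 24.98, 23.8, 23.9 and 27.3 FPKM in control and 35.7, 33.5, 32.5 and 39.1 in control DSS, with no overlap, a log2 fold change of 0.48 ± 0.10 and an adjusted p of 0.00469. Hadha measured 33.4, 35.4, 40.6 and 33.7 FPKM in control DSS, within or below its control values, with a log2 fold change of -0.09 ± 0.10 and an adjusted p of 0.524. In cKO, Hadhb measured 28.3, 25.8, 26.5 and 24.8 FPKM on water and 36.5, 39.4, 28.1 and 30.7 after DSS, a log2 fold change of 0.33 ± 0.10 with an adjusted p of 0.0381 and slight overlap, which did not pass without cKO 2, 3 or 4, control DSS 1, or cKO DSS 1 or 2 (adjusted p of 0.0507 to 0.103). Hadha measured 36.7, 31.1, 42.4 and 42.8 FPKM in cKO DSS.

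The ratio of Hadhb to Hadha was looked at after these values were seen. It ran from 0.638 to 0.679 in control and from 0.8 to 1.16 in control DSS. The exact two-sided permutation test gave p = 0.0286, the smallest that 4 libraries against 4 allow. In cKO the ratio ran from 0.731 to 0.884 on water and from 0.663 to 1.27 after DSS (exact permutation p = 0.629). Between genotypes on water the exact permutation p was 0.0286, and after DSS 0.543, and adjusted by Benjamini-Hochberg over these 4 tests the smallest value was 0.0572. Hadhb transcripts hold 39.1% GC and Hadha 51.3%. After correction of each library for GC content the Hadhb change in control was 0.17 with an adjusted p of 0.14.

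**Figure D5:**
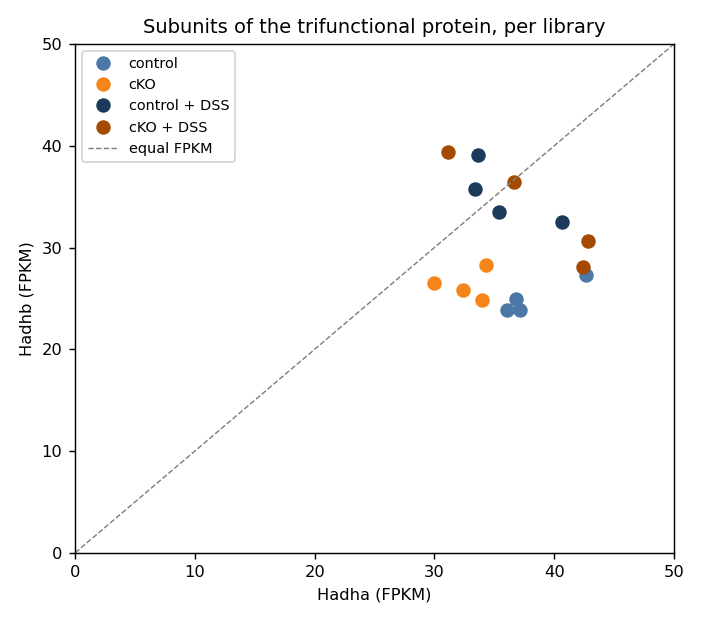
Hadhb against Hadha FPKM in each of the 16 libraries, coloured by group, with a dashed line of equal FPKM. The control libraries on water sit at ratios of 0.638 to 0.679, and the control DSS libraries at 0.8 to 1.16.

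The remaining 11 tested genes passed in no comparison and never separated 2 groups fully. Ppara, the receptor that drives fatty acid oxidation in liver, ran from 3.33 to 8.58 FPKM and Ppargc1b, a relative of PGC-1alpha, from 10.6 to 19.8. Acsl1, a long-chain acyl-CoA synthetase, ran from 1.80 to 3.61, and Slc25a20, the carnitine-acylcarnitine carrier, from 17.9 to 28.8. Of the mitochondrial enzymes, Acads ran from 100.9 to 165.3 FPKM, the thiolase Acaa2 from 68.3 to 110.1 and the isomerase Eci2 from 4.93 to 7.36. Bdh1, which interconverts acetoacetate and beta-hydroxybutyrate, ran from 30.9 to 47.3 FPKM, and its averaged genotype difference was -0.17 ± 0.07 with an adjusted p of 0.218. Of the peroxisomal enzymes, Hsd17b4 ran from 21.1 to 26.2 and the thiolases Acaa1a and Acaa1b from 31.5 to 41.0 and from 1.47 to 6.48. Of the Acaa1b transcript windows of 50 bases, 30.5% also stand in Acaa1a, so the level of Acaa1b is uncertain.

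Of 95 further genes of the same pathways 64 reached the level for testing. None passed by genotype on water, with 12 at an unadjusted p under 0.05, where 18.1% of all genes were. By genotype after DSS 2 passed (3.12%), where 3.70% of all genes did. The monoacylglycerol lipase Mgll was higher in cKO, at 14.8 ± 2.4 against 8.40 ± 1.49 FPKM (log2 fold change of 0.75, adjusted p of 0.0266). The propionyl-CoA carboxylase subunit Pcca was lower, at 9.05 ± 0.606 against 12.2 ± 0.439 (log2 fold change of -0.39, adjusted p of 0.0145). Pcca was the 1 gene of the 64 called on average (1.56%), where 2% of all genes were called. The DSS comparison called 17 of the 64 in control (26.6%), 11 higher and 6 lower, and 9 in cKO (14.1%), 5 higher and 4 lower, shares close to those of all genes. None passed for the interaction, with 17 at an unadjusted p under 0.05, where 23.2% of all genes were.

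Of 7 ketone body genes 5 were tested. The synthesis enzyme Aacs, which diverts acetoacetate to lipid, fell after DSS in cKO, from 43.1 ± 4.73 to 26.8 ± 5.15 FPKM (adjusted p of 0.0129).

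Of 12 genes of mitochondrial oxidation and electron transfer, all tested, 4 rose in control after DSS, where 15.0% of all genes did. In cKO none passed (1 at an unadjusted p under 0.05), where 14.7% of all genes did. For the interaction none passed, with 2 at an unadjusted p under 0.05, where 23.2% of all genes were. Among those that rose in control, Acadsb, a short branched-chain dehydrogenase, rose from 3.57 to 4.89 FPKM (adjusted p of 0.0119). Etfa and Etfdh, which pass electrons from these dehydrogenases to the respiratory chain, rose with adjusted p of 0.0306 and 0.0317. Of 7 further tested genes for activation to acyl-CoA, the acyl-CoA synthetase genes Acsl4 and Acsf3 moved apart in control after DSS. Acsl4, a long-chain synthetase, rose and Acsf3 fell (adjusted p of 0.0186 and 0.00869). In cKO, Acsm3 and Acss2 fell (0.0198 and 0.0373). Of 4 tested genes for carnitine handling, the peroxisomal acyltransferase Crot rose in control from 8.02 to 11.6 FPKM (adjusted p of 0.00202) and the carrier Slc25a29 fell (0.00725). Of 12 tested peroxisomal genes, the transporter Abcd3 alone passed, rising in control (adjusted p of 0.0166).

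Of 23 further PPAR targets 12 were tested. Pdk4, the kinase that turns off pyruvate dehydrogenase, rose after DSS in both genotypes, from 1.82 ± 0.631 to 5.87 ± 1.95 FPKM in control and from 3.01 ± 1.19 to 8.53 ± 1.23 in cKO, with log2 fold changes of 1.26 and 1.29 and adjusted p of 0.00186 and 0.00166. Among the lipases, Lpl rose and Lipe fell in control (adjusted p of 0.0162 and 0.00693), and Mgll and the acyl-CoA thioesterase Acot2 rose in cKO (0.0027 and 0.0419). Of 9 tested partners and corepressors, the corepressor Nrip1 rose and the estrogen-related receptor Esrra fell in control after DSS, with adjusted p of 0.0233 and 0.0138, and Lpin1, a phosphatidate phosphatase that also coactivates PPARs, fell in cKO (0.0325). Of 3 tested genes for monocarboxylate transport and fatty acid receptors, the long-chain fatty acid receptor Ffar4 rose from 7.15 ± 1.75 to 21.1 ± 6.6 FPKM in control and from 7.48 ± 1.02 to 32.7 ± 5.82 in cKO, with adjusted p of 0.000383 and 5.55e-05. Bsg, the chaperone of MCT1, fell in control after DSS from 417 to 304 FPKM (adjusted p of 0.0379), while Slc16a1 itself rose. The short-chain fatty acid receptor Ffar2 rose in cKO (0.00209).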

How the data were processed

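Total RNA of colonic epithelial cells was sequenced in 16 libraries, grouped and numbered as their labels say. The labels' protocols record a removal of reads that held adapters, uncalled bases or poor quality. Per the submitters' processing notes, featureCounts 1.5.0-p3, DESeq2 1.20.0 and build mm10 were used. Which aligner, annotation and strand setting were used is not given in the sources used here, so overlapping genes may share reads. The authors deposited FPKM per gene, with gene spans and lengths. FPKM times length was in every row a multiple of 1 value per library (within 0.05), and the multiples were taken as reads.

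Values were analysed as log2(FPKM + 1) for the 13255 genes that reached 1 FPKM in 4 or more libraries. Group means were fitted to all 16 libraries with limma 3.58.1 (lmFit, contrasts.fit, eBayes with a trend; R 4.3.3), and two-sided p-values were adjusted by Benjamini-Hochberg over all tested genes within each of 6 comparisons. A gene was called where its adjusted p was under 0.05. Comparisons of DSS with water and of genotypes share groups, so they are not independent of each other. GC content came from the longest GENCODE M21 transcript, known for 97.1% of the tested genes. No 2 libraries of a group agreed within counting noise.

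The genes and lists were chosen with earlier results of these data known. Named are genes called or without overlap in at least 1 comparison, and of each further list the 2 with the smallest p or those called. Alternatives were quantile normalization, a pseudocount of 0.1, a minimum of 5 FPKM or none, fits on 8 libraries, a replicate block, limma voom on recovered reads, a GC correction by loess (span 0.5), a covariate for the Y-linked level, and fits without each library, without cKO DSS 3 and 4, without control 4 and control DSS 2, or without libraries lacking Y-linked reads. The GC correction together with the block was added after seeing the data. Some genes of the further lists are not reported here.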

Additional observations from a re-analysis of the deposited data

Results flagged for a closer look

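In 6 of 136 groups of 4 libraries, 1 library lay apart from the other 3 by more than Dixon's 95% critical value. Chance gives about 1 in 20 such groups, so this number is no more than chance gives. Acsl1 was at 1.891 FPKM in control 4, the library with little Dbp, against 3.452 to 3.61 in the other control libraries. Acadvl was highest in control 3, at 34.08 FPKM against 31.82 to 32.08. Slc5a8 was lowest in control DSS 3, at 127.3 FPKM against 167.6 to 172.9. Eci1 was lowest in control DSS 4, at 13.62 FPKM against 16.89 to 17.53, and in cKO DSS 2, at 13.5 against 17.7 to 18.36. Slc25a20 was also lowest in cKO DSS 2, at 19.37 FPKM against 25.62 to 26.9. No interaction passed for the 34 tested genes.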

How the results depend on the processing

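None of the 17 calls of the tested genes turned its direction in any of the 29 alternative fits, and 7 of the 17 passed in all 16 fits that left out a library. The count of genes called by genotype on water (1) was 0 with no filter, a 5 FPKM filter, the replicate block, only the 8 libraries compared, without control 4 and control DSS 2, and in libraries with Y-linked reads, and 0 to 1 with a library left out. After DSS the count (1) was 0 with no filter, a 5 FPKM filter, 8 libraries, the GC correction alone or with the replicate block, without cKO DSS 3 and 4 and without control 4 and control DSS 2, and 0 to 2 with a library left out. Hsd17b13 is under 5 FPKM in most libraries and was not tested with that filter. The averaged count (1) was 0 with the 5 FPKM filter, 2 with quantile normalization (Slc27a2 added, at -0.39 with an adjusted p of 0.0488) and 1 to 4 with a library left out. For DSS in control the count (8) was 5 without control 4 and control DSS 2, 5 in libraries with Y-linked reads, 0 with the Y-linked covariate and 4 to 10 with a library left out. For DSS in cKO the count (6) was 1 in libraries with Y-linked reads, 0 with the covariate and 3 to 7 with a library left out. The interaction count (0) was 0 to 1 with a library left out. The causes were not tested.

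The check did not show that replicate numbers pair the samples: same-numbered libraries correlated at -0.199 to 0.3 over 24 pairs of groups and numbers, 6 of them over 0.1, while 9 of 16 libraries correlated best with their own number, a hint from the data and not from the design. With the replicate block 0, 1, 1, 8, 6 and 0 genes were called, in the order above, and Hsd17b13 on water had an adjusted p of 0.0751. Counts over all genes moved more. With a library left out they ran from 2 to 111 (12 as reported) by genotype on water, 78 to 886 (491) after DSS, 144 to 418 (265) on average, 2240 to 4258 (3778) for DSS in control, 1305 to 2153 (1950) in cKO and 0 to 1240 (20) for the interaction. Over the other alternatives they ran from 1 to 28, 33 to 601, 62 to 482, 193 to 4228, 94 to 2521 and 0 to 73. Hsd17b13, Slc27a2 and Acaa1b rest on few reads per library, at most 171, 158 and 190, which limits their precision.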
